A study of Homo sapiens with 12 samples.

Results

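Human chromosome 19 carries a dense set of zinc finger genes, and the genes examined here are those whose symbol is ZNF followed by a number and at most 1 letter, which lie on chromosome 19 and whose mean estimated count over the 12 samples was at least 50. Of 60099 genes in the deposited table, 260 had such a symbol and position and 160 reached the count threshold. GENCODE release 29 held all 160, of which 159 are protein coding and 1, ZNF887P, is a transcribed pseudogene. The threshold was set on the mean over all samples, so a gene that was high in only 1 of the cell lines could pass. ZNF844, ZNF559 and ZNF615 lay just outside it with mean counts of 46.1, 46.9 and 49.2, and ZNF433, ZNF222 and ZNF383 just inside it with 51.1, 51.3 and 52.3.

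The RNA came from Cal27 and HN30, established cell lines of head and neck squamous cell carcinoma (HNSCC), cultured without IFNα or for 24 h with 20 or 200 ng/ml of the type I interferon IFNα. Samples are named by letter and replicate: letters A and D were untreated, B and E received 20 ng/ml, and C and F received 200 ng/ml, with 2 replicates per letter. Letters A to C and D to F, which cover all doses, were taken as the 2 cell lines and are called line sets A-C and D-F (6 samples each), since the sources used here tie no letter to Cal27 or HN30. On that reading each set is a single cell line, and a difference between sets is a difference between 1 line and another and not between classes of tumour. No source says that replicates were separate cultures, and p-values then measure only the spread between these samples, which may be technical. Libraries were depleted of rRNA, kept the strand and held between 10517448 and 16056734 estimated counts, so that 3 counts, taken as the floor of a sample, corresponded to 0.194 to 0.307 CPM (counts scaled to a library of 1000000). Of 7 squamous epithelial markers, 7 in A-C and 6 in D-F had a mean of at least 1 TPM, the exception being KRT14 at 45.4 TPM in A-C and 0.0718 TPM in D-F. Among leukocyte markers, PTPRC and CD3E were below 0.1 TPM in both sets, and CD14 was at 1.22 TPM in A-C and 0.927 TPM in D-F. Among endothelial markers, CDH5 was at 18.7 TPM in A-C and 0.0882 TPM in D-F, whereas VWF and PECAM1 were at 0.185 and 0 TPM in A-C and at 0.00232 and 0.231 TPM in D-F. The part of these marker differences in the results was not tested.

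Most zinc finger proteins encoded on chromosome 19 join an array of C2H2 fingers, which reads DNA, to a KRAB domain, which recruits the corepressor TRIM28 and with it the histone methyltransferase SETDB1. Many of them bind transposable elements and keep them in heterochromatin. The genes arose by repeated tandem duplication and stand in clusters of related copies, and the clusters are themselves known to carry heterochromatin marks over their gene bodies. Loss of expression with promoter methylation has been described for individual members in tumours, including HNSCC.

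The first question was how the zinc finger genes differed between the line sets. Of the 160 members, 59 were called higher in D-F than in A-C and 1 was called lower, with a call requiring at least 2-fold and an adjusted p of at most 0.05 (edgeR quasi-likelihood test on the estimated counts of all 12 samples, averaged over dose). Over all 19944 genes tested, 18.5% were called higher in D-F and 12.5% lower, so that the members' 36.9% stood above the background in one direction and their 0.625% below it in the other. The gap was wider for large differences. A difference of at least 16-fold was found for 44 members (27.5%), all higher in D-F, and for none in the other direction, against a background of 5.37% higher and 3.56% lower. The 16-fold limit was chosen after the values were seen, because no member lay between log2 fold changes of 3.08 and 5.11. Among 206 genes with the same kind of symbol on other chromosomes, 3 were at least 16-fold higher and 3 lower, and among the 648 other genes of chromosome 19 the numbers were 17 and 3, both sets having a mean count of at least 50. Over all 13033 genes with such a mean count, 14.7% were called higher in D-F and 8.88% lower. At 16-fold the shares of these genes were 2.83% and 1.43%.

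The 44 genes were at or near the floor in every A-C sample and expressed in every D-F sample. No A-C sample held more than 19 counts of any of them, and 137 of the 264 A-C values were 0, whereas the lowest D-F value was 65 counts. Their mean levels ranged from 0 to 0.74 CPM in A-C (median 0.127 CPM) and from 7.71 to 82.2 CPM in D-F (median 13.5 CPM). The sets did not overlap for any of the 44, which largely follows from choosing them by a 16-fold difference in these samples. Of all genes tested, 22.5% lay wholly higher in D-F. Per length, the median level of the 44 was 11.3 TPM in D-F and 0.0604 TPM in A-C. The level in D-F is in part set by the count threshold, which genes near the floor in A-C could pass only through D-F. Fold differences taken from summed counts, with the 4 genes at 0 set to 3 counts over the 6 A-C samples, ranged from 33.9 to 623 with a median of 123. In bulk samples, a smaller share of cells with a transcript and less of it per cell cannot be told apart.

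**Figure D1:**
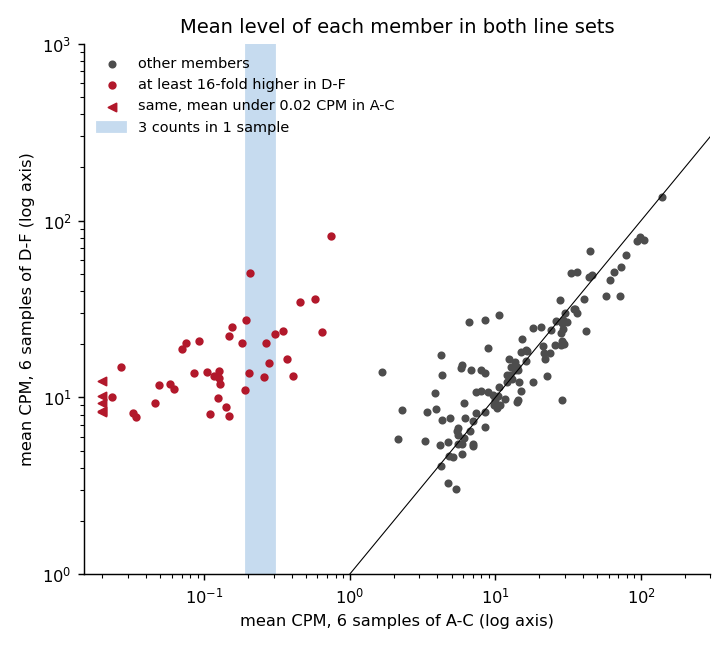
Mean CPM of each of the 160 members in the 6 samples of A-C (x axis, log scale) and of D-F (y axis, log scale), with the line of equal levels. The 44 members at least 16-fold higher in D-F (red) lie at or below 0.74 CPM in A-C and are separated from the other 116 (grey), while the blue band marks the range of 3 counts in 1 sample and triangles stand for means under 0.02 CPM.

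Summed over the 44 genes, each A-C sample held 57 to 121 counts, or 5.14 to 9.11 CPM, and each D-F sample 727 to 807 CPM. The other 116 members, which are those without such a difference, summed to between 2308 and 2614 CPM in all 12 samples. The difference of the 44 was present at each dose: 44 members were at least 16-fold higher in D-F when untreated samples, samples at 20 ng/ml or samples at 200 ng/ml were compared alone. That largely follows from choosing them by a difference averaged over these same doses and samples.

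The 44 genes were not spread along the chromosome. The 260 genes were grouped into clusters where neighbouring starts lay within 1 Mb, keeping groups of at least 5 genes, which gave 9 clusters numbered here from the short-arm end, with 8 members scattered outside them. Cluster 4, in the pericentromeric part from ZNF101 to ZNF254 (GRCh38, chr19:19668796-24129961), held 19 of its 25 members among the 44. Cluster 8, from ZNF175 to ZNF331 (chr19:51571298-53580269), held 15 of 25, cluster 6, with members from ZNF146 to ZNF607, held 6 of 10, and cluster 3, from ZNF653 to ZNF791, held 3 of 13. Cluster 9, with 42 members from ZNF628 to ZNF446 and thus the largest, held 1, ZNF256. Clusters 1, 2, 5 and 7, with 5, 11, 3 and 18 members, and the 8 scattered members held none. The median log2 fold change was 6.94 in cluster 4, 6.22 in cluster 8 and 6.10 in cluster 6, and between -0.16 and 0.75 in the other 6 clusters.

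**Figure D2:**
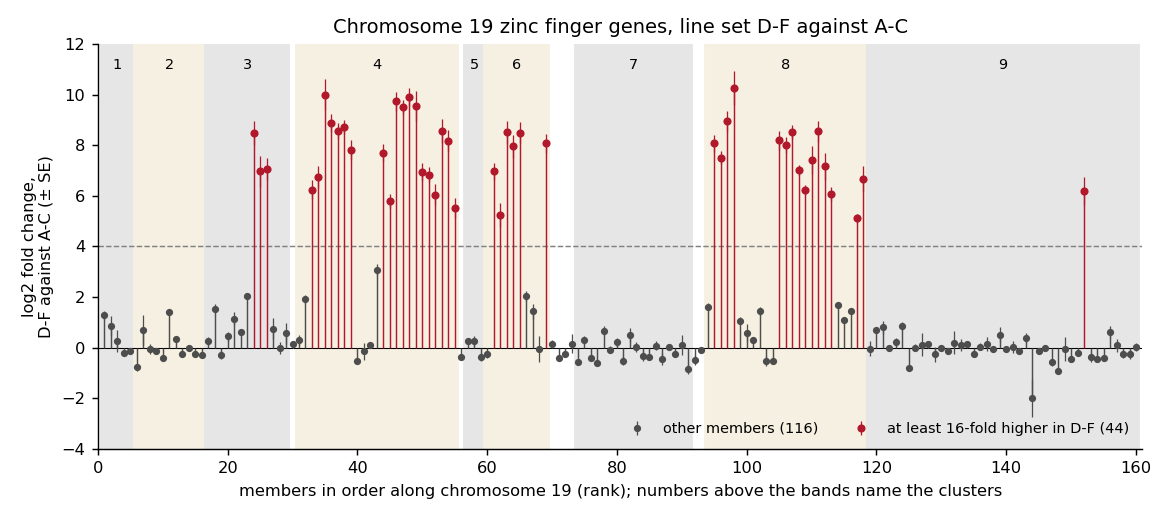
Log2 fold change of D-F against A-C (y axis, with SE) for the 160 members in their order along chromosome 19 (x axis, rank), with shaded bands for the 9 clusters numbered above them and a dashed line at 16-fold. The 44 members in red stand in blocks in clusters 3, 4, 6 and 8, apart from 1 in cluster 9, and the members between blocks of the same cluster lie between -0.54 and 3.08.

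Within the clusters the genes stood in runs of adjacent members. A total of 7 runs of 2 or more held 42 of the 44, and ZNF607 and ZNF256 stood alone among the members. The longest, from ZNF738 to ZNF254 (chr19:21358930-24129961), spanned 2.77 Mb and 12 members: ZNF738, ZNF493, ZNF429, ZNF100, ZNF43, ZNF257, ZNF724, ZNF91, ZNF675, ZNF681, ZNF726 and ZNF254. In the same cluster, 7 members from ZNF506 to ZNF85 (chr19:19785839-20950697) formed a run of 1.16 Mb. Genes below the count threshold were passed over in drawing the runs, so the ends of a run are not physical borders. Beside ZNF607, ZNF573 had 0 counts over A-C and 549 over D-F, and ZNF781, on the other side, 0 and 4. Beside ZNF256, ZNF418 had 0 and 57 and ZNF606 had 12 and 256. Between these runs lay 4 members that did not share the difference to that degree. ZNF430, ZNF714 and ZNF431 had log2 fold changes of -0.52 (SE 0.09), -0.15 (SE 0.34) and 0.10 (SE 0.13), and ZNF708, next to ZNF738, had 3.08 (SE 0.23). ZNF430 had 23.0, 28.2 and 34.1 CPM (lowest, median and highest) in A-C and 15.9, 20.1 and 22.0 CPM in D-F, and was thus slightly lower in D-F without overlap. ZNF708 had 0.775 to 2.15 CPM in A-C and 11.9 to 16.7 CPM in D-F, its A-C level lying between those of its neighbours ZNF431 and ZNF738. An expressed block of 3 genes in A-C therefore lay between blocks whose members had at most 19 counts in any A-C sample.

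Cluster 8 had the same layout on a smaller scale. ZNF577, ZNF649, ZNF350 and ZNF614 formed a run of 0.225 Mb with log2 fold changes of 7.50 to 10.27. The next member, ZNF432, starts at base 52031379, while ZNF614 ends at base 52030240, and their values differed: ZNF614 had 0 counts in all 6 A-C samples and ZNF432 had 6.22 to 8.08 CPM there. ZNF841, ZNF616, ZNF836, ZNF766 and ZNF480 followed with log2 fold changes between -0.54 and 1.43. The 9 members from ZNF808 to ZNF160 then formed a run of 0.576 Mb, with 6.06 to 8.55. ZNF845, ZNF765 and ZNF761 had 1.67, 1.09 and 1.46, and the final run held ZNF813 and ZNF331 with 5.11 and 6.68. In cluster 6, the 5 members from ZNF566 to ZNF850 formed a run, with the members ZNF146 at -0.27 (SE 0.15) and ZNF585B at 2.04 (SE 0.21) on either side. Between ZNF850 and ZNF585B lay ZNF790, ZNF345, ZNF829, ZNF568, ZNF420 and ZNF585A, below the count threshold. They had 0 to 2 counts over A-C and 120 to 297 over D-F. In cluster 3, ZNF433, ZNF625 and ZNF44 formed a run, and the member before it, ZNF700, was 2.02 (SE 0.08) higher on the log2 scale. Past ZNF44 and below the count threshold, ZNF563, ZNF442, ZNF799, ZNF443 and ZNF709 had 0 to 13 counts over A-C and 149 to 519 over D-F. The runs of members in clusters 3 and 6 therefore do not mark where the difference ends.

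Genes of other kinds within the span of these clusters were examined beside the zinc finger genes. In cluster 4, 5 of 6 such genes with a mean count of at least 50 were at least 16-fold higher in D-F, namely AC092329.4, IPO5P1, AC011447.3, AC092279.2 and AC092279.1, and the sixth was called lower. In cluster 6 they were 2 of 4, ZFP14, itself a zinc finger gene outside the naming pattern, and LINC00665, a long noncoding RNA. In cluster 8 there was 1 of 5, AC022150.4, while in cluster 7 there was 1 of 19, KCNN4, and in clusters 2, 3 and 9 none of 23, 4 and 19.

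The promoters of the genes are shown for 3 pairs, each a gene of the largest differences and the nearest member of its cluster within 2-fold, chosen among genes whose RefSeq start lay within 100 bases of the start in the deposited table. The 250 bases upstream of the RefSeq start on GRCh38.p14 are given 5′ to 3′ on the gene's strand with each CG dinucleotide, the site of DNA methylation, in capitals, because methylation is the mark described for silenced members in tumours. Methylation itself was not measured here. In cluster 4, ZNF90 (chr19:20077750-20077999, plus strand) was at 0 counts in A-C and ZNF101 (chr19:19668589-19668838, plus strand) was expressed in both sets.
ZNF90: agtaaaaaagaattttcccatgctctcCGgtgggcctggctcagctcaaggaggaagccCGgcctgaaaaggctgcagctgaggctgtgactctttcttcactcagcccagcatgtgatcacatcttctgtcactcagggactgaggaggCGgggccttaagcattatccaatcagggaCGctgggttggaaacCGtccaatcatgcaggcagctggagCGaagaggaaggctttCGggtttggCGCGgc
ZNF101: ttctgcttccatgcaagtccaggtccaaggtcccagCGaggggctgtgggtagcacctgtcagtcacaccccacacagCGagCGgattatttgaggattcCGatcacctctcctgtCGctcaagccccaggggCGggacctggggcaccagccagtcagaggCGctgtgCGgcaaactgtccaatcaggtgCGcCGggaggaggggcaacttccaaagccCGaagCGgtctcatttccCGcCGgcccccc
In cluster 8, ZNF350 (chr19:51986841-51987090, minus strand) had 2 counts over the 6 A-C samples and ZNF841 (chr19:52095766-52096015, minus strand) was expressed in both sets.
ZNF350: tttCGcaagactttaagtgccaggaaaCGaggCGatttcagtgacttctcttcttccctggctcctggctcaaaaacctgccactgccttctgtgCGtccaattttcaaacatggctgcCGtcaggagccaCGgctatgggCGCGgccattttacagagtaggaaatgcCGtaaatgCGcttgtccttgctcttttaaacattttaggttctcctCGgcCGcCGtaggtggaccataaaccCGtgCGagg
ZNF841: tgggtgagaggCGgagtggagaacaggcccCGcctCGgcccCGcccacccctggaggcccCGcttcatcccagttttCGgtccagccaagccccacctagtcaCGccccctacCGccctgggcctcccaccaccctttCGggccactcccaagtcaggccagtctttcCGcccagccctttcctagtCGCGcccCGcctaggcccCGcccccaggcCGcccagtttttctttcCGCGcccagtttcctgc
In cluster 6, ZNF529 (chr19:36605258-36605507, minus strand) had 3 counts over the 6 A-C samples and ZNF527 (chr19:37370849-37371098, plus strand) was expressed in both sets.
ZNF529: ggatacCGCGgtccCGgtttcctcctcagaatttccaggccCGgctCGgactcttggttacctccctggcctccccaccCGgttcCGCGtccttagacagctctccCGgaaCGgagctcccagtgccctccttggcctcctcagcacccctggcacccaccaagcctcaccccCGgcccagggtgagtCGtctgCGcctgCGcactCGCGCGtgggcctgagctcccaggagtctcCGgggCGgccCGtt
ZNF527: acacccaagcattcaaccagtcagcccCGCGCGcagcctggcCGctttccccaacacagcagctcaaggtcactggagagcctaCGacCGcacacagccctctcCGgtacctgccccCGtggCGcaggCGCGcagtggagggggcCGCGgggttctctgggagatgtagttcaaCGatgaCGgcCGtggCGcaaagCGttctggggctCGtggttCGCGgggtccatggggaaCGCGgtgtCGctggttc
These upstream stretches held 9 and 14 CG in the cluster 4 pair, 15 and 17 in the cluster 8 pair and 20 and 24 in the cluster 6 pair. RefSeq promoters, from 250 bases before to 50 after the start, were matched for 143 members. The median number of CG was 17 (quartiles 10 and 25) for 37 of the 44 genes and 21 (quartiles 16 and 26) for 106 others, against 13 (quartiles 3 and 28) over 27305 genes, so the distributions overlapped widely.

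The 10 largest fitted differences were those of ZNF614, ZNF90, ZNF43, ZNF429, ZNF257, ZNF100, ZNF350, ZNF486, ZNF66 and ZNF681. ZNF614, ZNF90, ZNF43 and ZNF429 had 0 counts in all 6 A-C samples, and their fold difference is a lower bound against 3 counts over those samples. In D-F, ZNF614 had 4.31, 12.3 and 17.5 CPM (lowest, median and highest), at least 304-fold higher. ZNF90 had 5.41, 11.4 and 15.1 CPM, at least 252-fold higher. ZNF43 had 8.32, 8.72 and 11.9 CPM and was at least 235-fold higher, and ZNF429, with 5.99, 8.38 and 9.38 CPM, at least 206-fold. These 4 genes lie in clusters 4 and 8. ZNF257, ZNF350 and ZNF486 had 2, 2 and 1 counts over the 6 A-C samples and 1177, 780 and 657 in D-F. Their ratios were 558 (95% exact interval 154 to 4614), 370 (102 to 3059) and 623 (111 to 24650). These and the later intervals treat each count as an independent event and cover counting error only. Most nonzero A-C counts of the 44 genes were even numbers, so counts may not be independent and the intervals may be too narrow. Across genes, the variance between replicates of a letter was 11.7 to 16.4 times that of counting error. ZNF350, also named ZBRK1, is a repressor known for binding BRCA1. ZNF681 had 4, ZNF66 5 and ZNF100 6 counts over A-C, with ratios of 175 (68.1 to 644), 169 (72.0 to 521) and 255 (117 to 694). With so few A-C counts the order of fitted differences is uncertain. ZNF433, with 2 counts over A-C and a ratio of 290, was not among the 10. The highest edgeR adjusted p among all 44 was 1.43e-05.

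**Figure D3:**
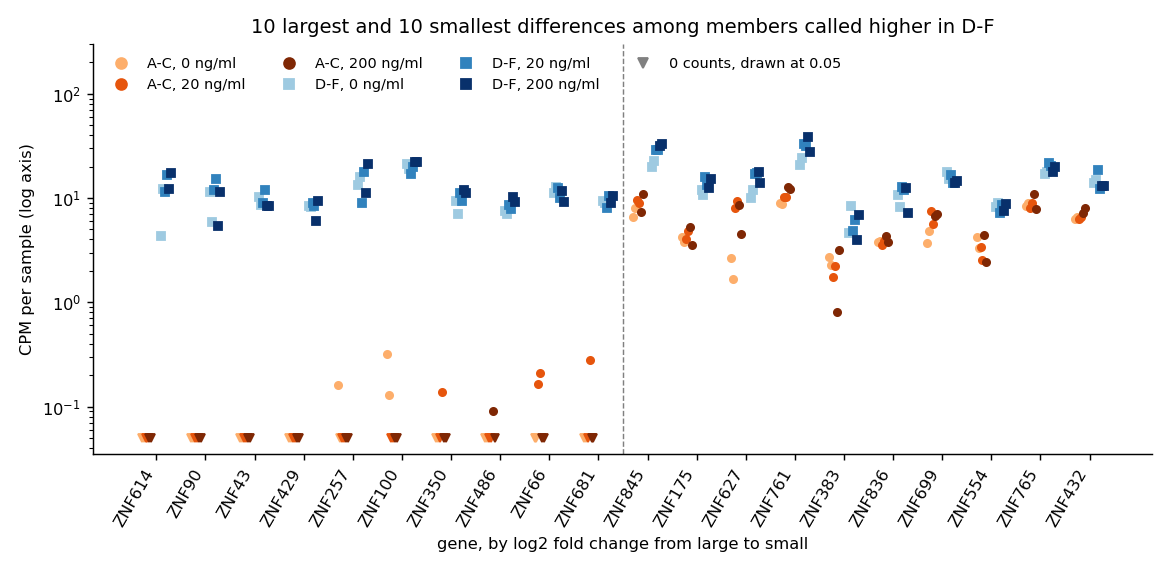
CPM of each of the 12 samples (y axis, log scale) for the 10 members with the largest and the 10 with the smallest difference among those called higher in D-F with no overlap (x axis). Circles stand for A-C and squares for D-F, shade for dose and triangles for 0 counts, and left of the dashed line every A-C value is below 0.33 CPM.

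Genes with known targets were among the 44. ZNF91, which represses SVA retrotransposons, had 0.450, 0.565 and 1.53 CPM (lowest, median and highest) in A-C and 46.3, 86.2 and 104 CPM in D-F, a 110-fold difference (84.3 to 145) and the highest level of the 44. ZNF649, which binds LINE-1 elements, had 0 to 0.322 CPM in A-C and 10.7 to 15.4 CPM in D-F, a 97.5-fold difference (52.8 to 204). ZNF808, which acts on MER11 elements and is needed for pancreas development, had 0 to 0.332 CPM and 11.2 to 39.4 CPM, a 158-fold difference (90.3 to 306), although 13.2% of its 100-base transcript words also occur in other genes. ZNF93, a repressor of LINE-1, and ZNF568, a regulator of placental Igf2 in mice, were below the count threshold, with mean counts of 0.667 and 0 in A-C and 83.5 and 23.7 in D-F. ZNF274, which binds the 3′ ends of zinc finger genes and recruits SETDB1 to them, was expressed in both sets. It had 25, 27.9 and 34.5 CPM in A-C and 19.3, 20.3 and 23.0 CPM in D-F, with a log2 fold change of -0.46 (SE 0.07, edgeR adjusted p = 0.000301).

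Of 9 chromosome 19 genes known for promoter methylation in tumours, ZNF331 and ZNF577 were members and both were among the 44. ZNF331 had 9 counts over the A-C samples and 1061 over the D-F samples, a 112-fold difference (58.7 to 245). ZNF577 had 4 and 944, a 224-fold difference (87.1 to 823). The other 7, ZNF132, ZNF154, ZNF382, ZNF471, ZNF582, ZNF667 and ZNF671, were below the threshold, and 6 of them had a mean count below 1 in both sets. ZNF382, the exception, had 0 counts in A-C and 16 over the 6 D-F samples.

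A further 15 members were higher in D-F by 2.11-fold to 8.53-fold on summed counts, with log2 fold changes of 1.07 to 3.08. Unlike the 44, they were expressed in all 12 samples, with means of 1.66 to 10.5 CPM in A-C and 5.79 to 29.2 CPM in D-F. Of the 15, 14 did not overlap between sets, against 22.5% of all genes tested that lay wholly higher in D-F. That follows in large part from choosing called genes. Among those 14, the 10 smallest differences belonged to ZNF845, ZNF175, ZNF627, ZNF761, ZNF383, ZNF836, ZNF699, ZNF554, ZNF765 and ZNF432. ZNF175, known as OTK18 and described as a repressor of HIV transcription, had 3.58 to 5.32 CPM in A-C and 10.7 to 16.1 CPM in D-F (log2 fold change 1.62, SE 0.14). ZNF432 had the smallest of the 15, with 6.22 to 8.08 CPM against 12.2 to 18.6 CPM (1.07, SE 0.12). Without E1, ZNF432 no longer passed. Several of these genes are the members next to a run: ZNF700 in cluster 3, ZNF708 in cluster 4, ZNF585B in cluster 6 and ZNF432, ZNF845 and ZNF761 in cluster 8. Genes below the count threshold were again passed over.

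The remaining members comprised 100 within 2-fold and ZNF551, the only member called lower in D-F, which is named after its values were seen. Its values split within both sets: A1, B2 and C2 had 41.8 to 52.9 CPM and A2, B1 and C1 2.91 to 14.0 CPM, and in D-F D1 had 37.0 CPM and the other 5 samples 3.66 to 4.61 CPM. The sets overlapped, its log2 fold change of -1.99 had an SE of 0.75 (edgeR adjusted p = 0.0397), and the call was lost without A1, B2, C2, D2, E1, E2, F1 or F2. The 5 members with the highest mean level per length were ZNF544 (59.0 TPM), ZNF587 (55.2 TPM), ZNF146 (53.1 TPM), ZNF121 (48.9 TPM) and ZNF114 (48.5 TPM), and they stood within 2-fold between sets. ZNF121, for example, had 133 to 145 CPM in A-C and 119 to 149 CPM in D-F (log2 fold change -0.03, SE 0.05). Of all 160 members, 62 (38.8%) lay wholly higher in D-F and 7 (4.38%) wholly higher in A-C, against 22.5% and 19.2% of all genes tested.

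The 100 zinc finger genes below the count threshold showed the same direction. Of these, 33 had at most 3 counts in each of the 12 samples, and 30 had a mean of at least 20 counts in D-F and below 3 in A-C. The reverse held for 1, ZNF812P, with 280 counts over A-C and 0 over D-F. The same was not counted over other genes of similar level, so no background share stands beside these numbers. Over all genes tested, differences of at least 16-fold also leaned to D-F, with 5.37% higher and 3.56% lower. ZNF844 and ZNF615, 2 of the 3 genes just under the threshold, were among the 30, with mean counts of 0.167 and 0.667 in A-C and 92.0 and 97.7 in D-F. These genes are given as counts because they had no part in the rule.

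Related copies can draw reads from one another. Over the 44 genes, the median share of a gene's 100-base words that also occur in transcripts of other genes was 0.293%, and 5 exceeded 10%: ZNF625 (77.2%), ZNF468 (52.0%), ZNF724 (41.9%), ZNF808 (13.2%) and ZNF607 (11.8%). The counts of these 5 are uncertain to that degree. Of the other 116 members, 18 exceeded 10%. The other 39 of the 44 shared at most 10% of their words. The words come from annotated transcripts, and where the reads of these genes aligned was not examined.

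A list of 27 genes of the machinery that silences chromatin, which also holds TET1, TET2 and TET3, was expressed in full in both sets. The numbers over the list therefore mix genes that add silencing marks with genes that act on methylcytosine. In D-F, 7 passed as higher, 10 as lower and 10 did not pass (adjusted p of at most 0.05, which 33.7% of all genes tested met as higher and 31.1% as lower), with a median log2 fold change of -0.08, beside 0.02 over all genes tested. DNA methylation enzymes stood on both sides. DNMT1, which maintains methylation, had 268, 286 and 311 CPM (lowest, median and highest) in A-C and 204, 207 and 228 CPM in D-F (log2 fold change -0.45). UHRF1, its partner, was also lower at -0.57, whereas DNMT3B, a de novo methyltransferase, was higher, with 9.99 to 14.9 CPM in A-C and 38.6 to 48.4 CPM in D-F (1.78, SE 0.07). TET1 and TET2, which oxidise methylcytosine, were higher in D-F by 1.82 (SE 0.13) and 1.33 on the log2 scale, whereas TET3, of the same family, was lower at -0.29 (SE 0.04). TRIM28 was lower at -0.30 (SE 0.06) with overlapping sets, and SETDB1 had 0.16 (SE 0.07), which did not pass. In the HUSH complex, which spreads the same mark, FAM208A (TASOR) was higher at 1.31 (SE 0.05), whereas MPHOSPH8 and PPHLN1 were lower at -0.87 and -0.43. At 200 ng/ml, averaged over the sets, FAM208A passed as higher at 0.27, CBX5, the heterochromatin protein HP1α, and TET3 passed as lower at -0.84 and -0.25, and the other 24 did not pass. FAM208A moved in opposite directions, from 61.3 and 65.6 to 101 and 102 CPM in A-C and from 205 and 228 to 192 and 202 CPM in D-F, and its response differed between sets (interaction -0.82, edgeR adjusted p = 0.0128). CBX5 fell in both sets, by more in D-F (interaction -0.61, edgeR adjusted p = 0.0404). The part of these genes in the difference of the 44 was not tested.

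The second question was whether IFNα changed the zinc finger genes. As a check of the doses, 5 of 5 interferon-stimulated genes (IFIT1, IFIT3, MX1, OAS1 and ISG15) were called higher at both doses, with medians on the log2 scale of 4.20 and 4.10 (200 and 20 ng/ml). Among the 160 members, 6 passed at 200 ng/ml (edgeR adjusted p of at most 0.05, averaged over line sets), 3 higher and 3 lower, against a background of 9.55% of all genes tested, of which 4.98% were higher and 4.57% lower. At 20 ng/ml, 2 passed, 1 higher and 1 lower, against 3.93%, of which 2.33% were higher and 1.6% lower. Between 200 and 20 ng/ml none passed by edgeR, against 0.135%, with 16 at an unadjusted p under 0.05 and 2 by DESeq2. At these doses the members' median log2 fold changes were 0.02 and 0.04, compared with -0.01 over all genes at both doses. The background includes genes of lower count than the members. Over all 13033 genes with a mean count of at least 50, 13.5% passed at 200 ng/ml and 5.65% at 20 ng/ml. The members' share, 3.75% at 200 ng/ml and 1.25% at 20 ng/ml, was thus below the background at both doses. The 206 zinc finger genes on other chromosomes were also below it, with 4.85% at 200 ng/ml and 1.94% at 20 ng/ml. The 648 other genes of chromosome 19 stood at 14.4% and 3.86%. A low share was therefore not particular to the members. Many members were near the floor in A-C, and how far this lowered the members' share was not tested. The 3 higher calls at 200 ng/ml fell to 0 without A2 or D1 and to 1 without F1, and the 3 lower calls became 0 without D2 or F1, 1 without C2, D1 or E2 and 7 without C1. At 20 ng/ml the higher calls became 3 without C1 or C2, and the lower calls 0 without B2 and 2 without E1. Between the doses, 2 passed without C1.

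Among the members that passed at 200 ng/ml, ZNF627 had the largest log2 fold change. It had 1.68 and 2.66 CPM in the A-C controls, 8.05 and 9.37 CPM at 20 ng/ml and 4.50 and 8.65 CPM at 200 ng/ml. In D-F it had 10.1 and 11.9 CPM in controls, 17.1 and 17.2 CPM at 20 ng/ml and 14.0 and 17.7 CPM at 200 ng/ml, so that treated samples lay above the controls in both sets. Its log2 fold change was 1.07 (SE 0.22, edgeR adjusted p = 0.0159) at 200 ng/ml and 1.33 (edgeR adjusted p = 0.00893) at 20 ng/ml. Without A2, D1 or F1 it no longer passed at 200 ng/ml, nor did it with limma on log2(TPM + 0.1), where the value was 0.38. ZNF761, in cluster 8, was higher by 0.53 on the log2 scale (SE 0.12), going from 8.78 and 8.95 to 12.2 and 12.9 CPM in A-C and from 20.6 and 24.1 to 27.7 and 38.1 CPM in D-F. ZNF562, in cluster 2, rose by 0.28 (SE 0.07), from 87.0 and 95.7 to 100 and 111 CPM in A-C and from 67.2 and 72.9 to 85.4 and 94.1 CPM in D-F. These 3 genes were expressed in both line sets before treatment.

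ZNF579 and ZNF865 fell. ZNF579 had 6.85 and 7.36 CPM in the A-C controls and 3.07 and 3.96 CPM at 200 ng/ml, and 9.41 and 10.4 CPM followed by 8.57 and 8.73 CPM in D-F (log2 fold change -0.60, SE 0.14). ZNF865 had 13.1 and 17.6 CPM and then 9.73 and 10.6 CPM in A-C, and 14.4 and 14.7 CPM and then 10.6 and 11.2 CPM in D-F (-0.51, SE 0.13). ZNF446 passed as lower at -0.82 (SE 0.20), with 6.29 and 7.81 CPM in the A-C controls and 1.94 and 2.25 CPM at 200 ng/ml, whereas its D-F values overlapped. Its log2 fold change was -1.74 in A-C and 0.11 in D-F, and the interaction test did not pass. ZNF600, the member that passed as lower at 20 ng/ml, is 1 of the 44 and its call came from A-C values of 0 to 6 counts per sample, while its log2 fold change in D-F was 0.21. These smaller responses lay near the threshold. When 1 sample at a time was left out, the log2 fold change stayed between 0.40 and 0.63 for ZNF761, -0.71 and -0.52 for ZNF579, -0.61 and -0.39 for ZNF865 and 0.24 and 0.31 for ZNF562. The call of ZNF761 was lost without A1, A2, C1, D1 or F1, that of ZNF579 without A2, C2, D2, F1 or F2, that of ZNF865 without any of A2, C1, C2, D1, D2, E2, F1 and F2, and that of ZNF562 without any sample other than A1 or C2.

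**Figure D4:**
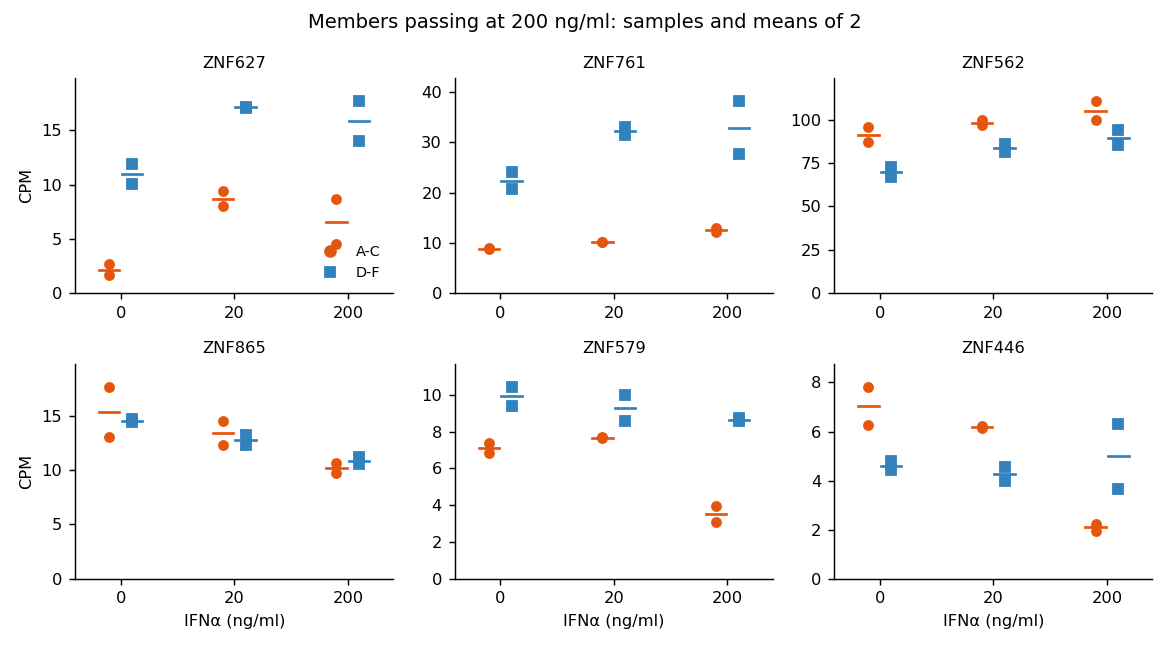
CPM (y axis, from 0) at 0, 20 and 200 ng/ml IFNα (x axis) for the 6 members that passed at 200 ng/ml, with circles for the A-C samples, squares for the D-F samples and bars for the mean of 2 replicates. ZNF627, ZNF761 and ZNF562 are higher at 200 ng/ml in both sets, ZNF865 and ZNF579 lower in both, and ZNF446 has D-F values that overlap.

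In A-C, no sample with IFNα had a sum over the 44 genes above that of the higher control. The A-C controls had 7.29 and 9.11 CPM, the samples at 20 ng/ml 8.39 and 9.04 CPM, and the samples at 200 ng/ml 5.14 and 7.36 CPM. Of the 44 genes, 14 and 15 exceeded 3 counts in the A-C controls, 14 and 16 at 20 ng/ml and 7 and 10 at 200 ng/ml, in libraries that were also smaller at 200 ng/ml. In D-F, where the genes were expressed, the sum was 727 and 774 CPM in controls and 783 and 803 CPM at 200 ng/ml. Within D-F none of the 160 members passed at 200 ng/ml by edgeR, with 11 at an unadjusted p under 0.05. The share passing in D-F was 5.84% of all genes tested and 8.37% of those with a mean count of at least 50. It was 5.56% of other chromosome 19 genes and 1.94% of zinc finger genes elsewhere. The median log2 fold change of the 44 there was 0.02, with a range of -1.33 to 0.85 and 26 of 44 above 0. ZNF808 had the lowest value, with 27.2 and 32.7 CPM in the controls, 26.2 and 39.4 CPM at 20 ng/ml and 11.2 and 12.7 CPM at 200 ng/ml (SE 0.35, edgeR adjusted p = 0.0669). It fell short of the threshold although its samples at 200 ng/ml lay below all others of D-F.

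**Figure D5:**
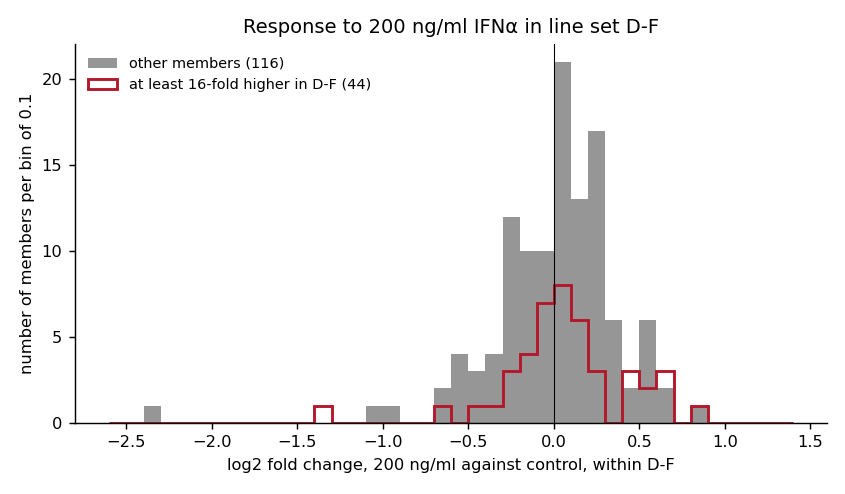
Number of members (y axis) by log2 fold change of 200 ng/ml against control within D-F (x axis, bins of 0.1), for the 44 members at least 16-fold higher in D-F (red line) and the other 116 (grey). Both distributions centre near 0, with medians of 0.02 and 0.05.

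The response to 200 ng/ml was not shown to differ between line sets for any member. None passed the interaction test by edgeR, against 1.88% of all genes tested, with 18 at an unadjusted p under 0.05 and 1 by DESeq2. Without C1 there were 3 and without F1 there was 1. Promoter sequences were also searched for GAAANNGAAA, the core of the element through which interferon acts, on either strand. It occurred in 0 of the 143 matched member promoters and in 3.65% of the 27305 promoters, 1 per gene, and no match says only that these letters are not in the window.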

How the data were processed

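Total RNA of 12 samples was depleted of rRNA and sequenced on the HiseqXTen platform. Every combination of dose and line set held 2 replicates. The submitters' processing notes name Trimmomatic 0.36, HISAT2 2.1.0, StringTie 1.3.3b and GRCh38.p10, and the annotation release is not given in the sources used here. Gene values were deposited as unscaled estimated counts, which were whole, and as TPM, which the authors had scaled to transcript length and depth. Estimated counts of exons shared between genes depend on how reads were divided. A table of transcripts was not used here.

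Counts were tested with edgeR 4.0.16 in R 4.3.3 (TMM normalization, filterByExpr, quasi-likelihood test, Benjamini-Hochberg adjustment over 19944 genes) in a single model with 6 groups, 1 for each letter. Standard errors were obtained as |log2 fold change| over √F. CPM is the count scaled to a TMM-adjusted library of 1000000, and TPM was used as deposited to compare levels between genes. Total counts of 10517448 to 16056734 and 2 replicates per group limit the precision. DESeq2 1.42.0, limma 3.58.1 on log2(TPM + 0.1) and the alternatives given in the closing section were also run.

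The members, the gene lists and the tests were chosen with earlier results of these data known. Named were the 10 largest and 10 smallest differences between line sets among called members without overlap, up to 6 members in each direction that passed at 200 ng/ml with treated samples on the same side of the controls in both sets, the 5 highest mean TPM values, the first and last member of each cluster, and members of the lists of genes methylated in tumours, of genes with known targets, of silencing machinery and of interferon-stimulated genes. Other members described here, among them ZNF446, ZNF551, ZNF600, ZNF812P and the genes bordering runs, were chosen after their values were seen. Some listed genes that are not members are not reported here.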

Additional observations from a re-analysis of the deposited data

Results flagged for a closer look

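In 3 named members every A-C sample at 200 ng/ml moved to one side of its controls and every D-F sample to the other. The log2 fold changes in A-C and D-F were 0.67 and -0.21 for ZNF699, -4.54 and 0.14 for ZNF100 and 0.25 and -0.15 for ZNF432. The interaction test did not pass for these genes (edgeR adjusted p = 0.155, 0.122 and 0.516). The A-C value of ZNF100 came from 6 counts in the controls and 0 counts in treated samples, so that its fitted size depends on the prior count. Over all 160 members, 10 (6.25%) moved in this way, against 9.54% of all genes tested.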

How the results depend on the processing

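The 44 members at least 16-fold higher in D-F were the same 44 genes under every alternative fit, while a mean count of at least 100 left 17 of them, by its own construction, and 27 members called higher in place of 59. With a mean count of at least 20 these numbers were 65 and 83. The 16-fold counts were added after the data were seen. Leaving out 1 sample at a time gave 0 to 1 members called lower, 0 to 4 higher and 0 to 7 lower at 200 ng/ml, 1 to 3 higher and 0 to 2 lower at 20 ng/ml, 0 to 2 between doses and 0 to 3 interactions. The members called lower between line sets numbered 2 with a mean count of at least 20, 25 by adjusted p alone, 5 in untreated samples and 0 at 20 ng/ml, and 1 gene was 16-fold lower with a mean count of at least 20. DESeq2 gave 6 higher and 5 lower at 200 ng/ml, 2 higher and 0 lower at 20 ng/ml, 2 between doses and 1 interaction. At 200 ng/ml there were 1 higher and 0 lower with the compared groups alone, 1 higher and 0 lower at 2-fold, and 0 lower without a filter on low counts. Same-numbered samples did not deviate together (correlations of -0.0507 to 0.0585), and a replicate block gave 1 higher and 1 lower at 200 ng/ml and the same number for all other counts. Of 430 values of named genes, 382 kept their call, 48, in 7 genes, lost it and 0 reversed. The cause of these changes was not tested. Clusters drawn with a gap of 0.5 Mb divided cluster 9 and reduced cluster 2 to 9 members and cluster 7 to 17. They left 11 members scattered and the 44 genes in the same places.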

Other observations

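Zinc finger genes on other chromosomes differed by at least 16-fold in both directions. Over the 6 samples of each set, ZNF736 had 6 counts in A-C and 2867 in D-F, ZNF680 had 31 and 5735, both on chromosome 7, and ZNF883, on chromosome 9, had 13 and 1024. In the other direction, ZNF483, on chromosome 9, had 4598 counts in A-C and 0 in D-F, ZNF518B, on chromosome 4, had 3059 and 0, and ZNF608, on chromosome 5, had 758 and 14. These 6 genes were named after their values were seen.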
